A study of Mus musculus with 13 samples.

Results

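The genes described here are nuclear-encoded genes of oxidative phosphorylation, measured in single cells of the mouse small intestine. They were chosen by symbol alone: every gene in the deposited tables whose symbol begins with Nduf, Uqcr, Cox4 to Cox8 or Atp5 was taken, and 7 assembly factors with such a beginning were left out. The rule found 77 of 16204 genes. By symbol, 37 of them belong to complex I, 8 to complex III, 15 to complex IV and 17 to complex V. A symbol alone does not show that its gene encodes a subunit. The genes of complex II and Cyc1 of complex III have other symbols and are not among the members. All of the 77 are accounted for: Cox8b had no transcript in the cells kept, Cox6a2 was found in 2 and Cox6b2 in 11 of 13 libraries, and the other 74 were found in every library.

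Complex I (NADH dehydrogenase), complex III (cytochrome bc1) and complex IV (cytochrome c oxidase) pass electrons to oxygen and pump protons across the inner mitochondrial membrane, and complex V, the ATP synthase, uses the returning protons to make ATP. Complexes I, III, IV and V are built from subunits of both genomes, and 0 of the 13 protein genes of the mitochondrial DNA were among the genes in the files, so only the nuclear part was measured. In the intestinal crypt, Lgr5-expressing stem cells give rise to proliferating progenitors, to absorptive enterocytes and to the secretory Paneth, goblet, enteroendocrine and tuft cells, and these cells are known to rely on oxidative metabolism and on glycolysis to different degrees.

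All 13 libraries came from small intestine of mice that carry Lgr5-CreERT2 on C57Bl6/J and the Rosa26LSL-YFP reporter. Tamoxifen switches the reporter on in Lgr5-expressing stem cells, so a traced (YFP+) cell is such a cell or its descendant. There were 5 libraries of traced cells at 5 days, 1 of traced and 1 of non-traced CD24+ cells at 3 weeks, 3 of traced CD24+ cells, 2 of non-traced CD24+ cells and 1 of traced cells with no CD24 gate in its label at 8 weeks. The time of tracing and the CD24 gate therefore change together between 5 days and 8 weeks. The labels do not say which libraries come from separate mice, so a p-value measures the spread between libraries, which may be technical in part. Where classes of the same libraries are compared, it measures the spread left after each library's own effect is taken out. That spread is taken over all classes of these libraries. Ages and sexes of the mice are not given in the sources used here.

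Each library held 96 cells, one per well, and the same 96 well barcodes occur in every library. Of 1248 cells, 892 had at least 3000 transcripts and were kept. Library totals ran from 421675 to 1385266 transcripts, with 50 to 87 cells kept per library. The kept cells were sorted by the summed level of marker genes into 272 proliferating-like, 156 tuft-like, 114 enteroendocrine-like, 88 goblet-like, 69 Paneth-like, 66 stem-like and 33 enterocyte-like cells, with 59 cells of mixed markers and 35 assigned to none. No member of the set is among these markers, and stromal and leukocyte markers had a median of 0 in each class except a leukocyte sum of 0.387 transcripts per 10000 in Paneth-like cells. Stem-like and proliferating-like cells are ranges of a marker sum rather than separate types: 115 cells lay within 1.5 times above the stem limit and 110 above the proliferating limit. Replicate 4 at 5 days stood apart, with 38 of the 59 mixed cells, and results that include its cells are given with and without it where the count changes.

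Motif matches in the start regions are shown first, because the members are encoded on many chromosomes and act in 4 complexes. RefSeq (GRCm38.p6) gave a window of 300 bases, 250 before and 50 after the start, for 66 of the 77 members and for 11739 of the genes in the files. A spelling of the NRF1 motif, GCGC and then TGCGC with any 1 base between them, on either strand, stood in 14 of the 66 member windows (Atp5g2, Atp5g3, Atp5h, Atp5k, Atp5o, Cox6a1, Ndufa11, Ndufa5, Ndufa6, Ndufa8, Ndufb4, Ndufs5, Ndufs6 and Uqcrc1), or 21.2%, against 8.97% of the genes in the files and 4.78% of all 27025 RefSeq windows. NRF1 is a transcription factor known for binding the promoters of nuclear respiratory genes. The following 80-base stretches of 3 members from different complexes are on the minus strand of GRCm38.p6 and are written 5′ to 3′ on the gene's strand. Capitals mark the match, which reads as the reverse complement of the spelling above and begins 117 bases before the start in Cox6a1, 141 in Atp5h and 98 in Ndufs5.

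Cox6a1, chr5:115349031-115349110: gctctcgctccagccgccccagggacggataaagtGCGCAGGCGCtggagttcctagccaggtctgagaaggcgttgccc

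Atp5h, chr11:115420016-115420095: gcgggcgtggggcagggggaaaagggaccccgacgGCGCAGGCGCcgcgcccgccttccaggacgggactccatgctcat

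Ndufs5, chr4:123718240-123718319: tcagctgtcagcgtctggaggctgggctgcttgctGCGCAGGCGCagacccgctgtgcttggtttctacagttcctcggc

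In total 13 spellings were searched on both strands, and several overlap one another. The shorter NRF1 spelling CGCATGCG stood in 12.1% of member windows against 3.45% of the genes in the files. For YY1, a factor also known at respiratory genes, AAGATGGC stood in 15.2% against 4.19%, a longer spelling (AA, any base, then ATGGCGG) in 9.09% against 2.86% and ATGGCGGC in 10.6% against 4.37%. For the ETS family, which includes NRF2/GABP, CCGGAAG stood in 19.7% against 15.7% and ACTTCCG in 15.2% against 11.7%. For the estrogen-related receptors, AAGGTCA stood in 10.6% against 3.44% and the longer TCAAGGTCA in 1.52% against 0.247%. Of the general promoter spellings, GGGCGG (SP1) was in 39.4% of member windows and 59.2% of the genes in the files, CCAAT in 42.4% and 38.7%, TATAAA in 9.09% and 8.48%, and the cAMP-response spelling TGACGTCA in 6.06% and 2.98%. These are counts of letters in a window, with no test, and no binding was measured.

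Levels are given as transcripts per 10000 of a library's or class's transcripts. CEL-seq counts one 3′ tag per molecule, so levels of different genes can be set side by side without a length correction. Over the kept cells, complex V took the largest part of the members' transcripts, 32.8%, followed by complex I with 28.6%, complex IV with 28% and complex III with 10.6%. Per gene the order was different, with a median level of 8.21 for complex IV, 6.55 for complex V, 4.87 for complex III and 2.94 for complex I. The highest member was Atp5b, the catalytic beta subunit of ATP synthase, at 18.5 ± 3.85 (SD, n = 13 libraries, 13.2 to 22.9). Atp5g3, a gene of the membrane ring subunit c, stood at 15.1, and the complex IV subunits Cox8a and Cox6c at 14.4 and 13.8. In complex III, Uqcrh (the hinge protein) was highest at 8.09 and Uqcr11 next at 6.26, and in complex I Ndufa4 was highest at 5.74 and Ndufa6 next at 5.16. Ndufa4 carries a complex I name but is now regarded as a subunit of complex IV.

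The 7 nuclear core subunits of complex I, which hold its flavin and iron-sulphur centres, had a median level of 2.38, with Ndufs1 lowest at 1.24. The 30 other Nduf genes had a median of 3.00 and ranged from 0.18 for Ndufs5 to 5.74 for Ndufa4. The rare members were mostly isoforms known from muscle, heart or testis. Cox7a1 was at 0.64, Cox6b2 at 0.06, Cox6a2 at 0.01 and Cox8b at 0. Atp5s, Cox6a2, Cox6b2, Cox8b and Ndufs5 passed the filter on low counts in none of the 14 comparisons, Atp5sl in 1 and Cox7a1 in 5. At least 29 of the members overlap another annotated gene and 4 a coding gene on the same strand (Atp5o, Ndufb2, Ndufb8 and Ndufb9), and whether the counting used strand is not given in the sources used here.

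The summed share of the members in the transcripts differed between the classes by more than the spread between libraries in several cases. At 5 days, enterocyte-like cells stood highest, with 6.67%, 5.09% and 7.02% in replicates 1, 3 and 5, a mean of 6.26% ± 1.03 (SD, n = 3). Proliferating-like cells had 4.69% ± 0.18 (n = 5), enteroendocrine-like cells 4.53% ± 0.49 (n = 3), stem-like cells 4.19% ± 0.51 (n = 5) and goblet-like cells 4.04% ± 0.71 (n = 4). The ranges of these last 4 overlap one another. Paneth-like cells were lowest, with 2.12%, 1.83% and 2.18% in replicates 2, 3 and 5, below every library of every other class. The single enterocyte value from 3 weeks was 6.68%, in the library labelled non-traced, which had the highest share of spike-in reads (16.6%). The second 3-week set of the combined deposited table is named for YFP, the tracing reporter, and not as non-traced, so the label of this library is in doubt.

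In the 5 CD24+ libraries at 8 weeks the order was tuft-like above enteroendocrine-like above Paneth-like in each library. Tuft-like cells had 4.04%, 3.62% and 3.77% in the traced and 3.77% and 3.61% in the non-traced libraries. Enteroendocrine-like cells had 3.19%, 2.66% and 2.64% in the traced and 3.17% and 2.27% in the non-traced libraries. Paneth-like cells had 1.03%, 1.16% and 1.02% in the traced and 1.00% and 0.99% in the non-traced libraries. The 3 classes did not overlap. Genes that mark a class take 42.2% of the transcripts of Paneth-like cells, so every other gene's share is smaller there. With all marker genes left out, Paneth-like cells had 1.99%, 1.96% and 1.81% in the traced and 1.85% and 1.72% in the non-traced libraries, and tuft-like cells were 1.89 to 2.15 times as high in the same libraries, against 3.11 to 3.90 times with the marker genes in. The plot of summed shares by class shows both scales.

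**Figure D1:**
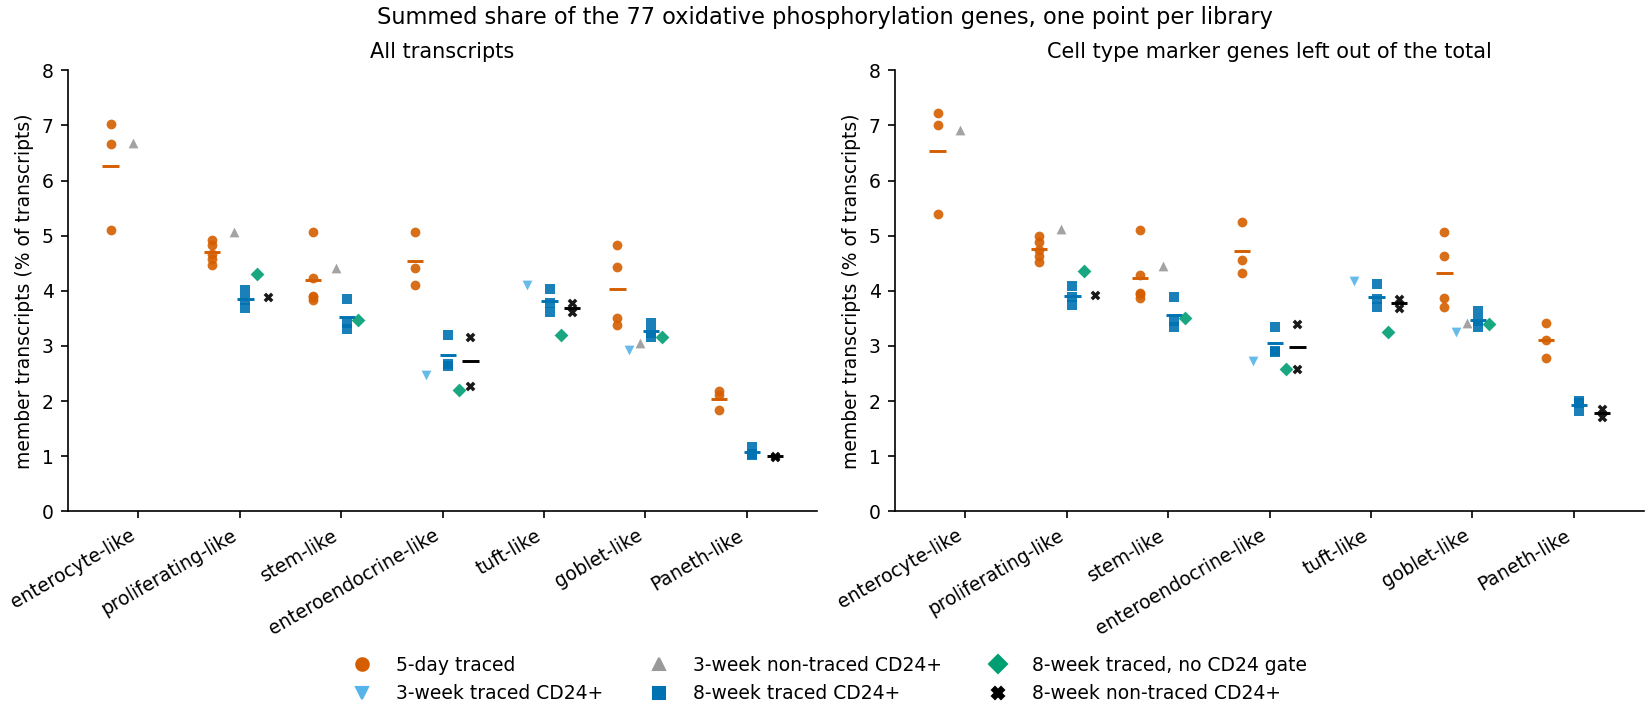
Summed share of the members in the transcripts of each class (y axis, percent), 1 point per library with at least 3 cells of the class and a short line for the mean of a group with more than 1 library; the left panel uses all transcripts and the right panel leaves out every marker gene. Enterocyte-like cells at 5 days (mean 6.26%) lie highest and Paneth-like cells at 8 weeks (mean 1.07% in the traced CD24+ libraries) lowest on the left, and the gap between Paneth-like cells and the other classes narrows on the right.

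Tests on single genes used counts summed over the cells of a class in a library, edgeR's quasi-likelihood test and Benjamini-Hochberg adjustment over all genes tested, with 0.05 as the threshold. The fitted changes are relative to the other genes, because scaling factors are estimated over all of them. Where the 2 groups differ in composition, the median gene's level also shifts: by 0.40 on the log2 scale between enterocyte-like and stem-like cells, by -0.84 between Paneth-like and stem-like cells, by -1.24 between Paneth-like and enteroendocrine-like cells, by 1.25 between tuft-like and Paneth-like cells, by 0.12 between proliferating-like and stem-like cells and by -0.23 between Paneth-like cells at 8 weeks and at 5 days. Levels below include this shift and fitted log2 changes do not. Counts of members that passed under an alternative setting are given without the share of all genes tested in that setting. They are not read as results about the members.

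Enterocyte-like cells had higher levels of many subunits than stem-like cells of the same 5-day libraries (replicates 1, 3 and 5). Of 71 members tested, 21 were higher and 2 lower, where 20.8% of all genes tested were higher and 16% lower. The higher members were 7 of 12 of complex IV (58.3%), 7 of 15 of complex V (46.7%), 2 of 8 of complex III (25%) and 5 of 36 of complex I (13.9%). The share in complex I thus lies below that of all genes tested, and the share in complex III lies near it. The median fitted log2 change was 0.49 over the members and 0.17 over all genes tested. These counts rest on 8, 7 and 3 enterocyte-like cells. Of the fits with a library left out, the count fell most without the first. Without 5-day replicate 1, 2 members passed (1 higher, 1 lower), and without replicate 3 or replicate 5, 13 passed in each case. The share of all genes tested that passed in these fits is not given. With no filter on low counts 8 passed.

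Cox7a1, known as the muscle and heart isoform of a small complex IV subunit, had the largest difference. Its levels were 9.87, 5.16 and 5.32 in enterocyte-like cells of replicates 1, 3 and 5 and 0.458, 0 and 0 in stem-like cells, with 7.17 in the enterocyte-like cells of the 3-week library labelled non-traced. The 2 classes did not overlap, and the fitted log2 change was 4.75 (SE 0.55, edgeR adjusted p = 7.3e-07), a value that depends on the prior count because 2 stem libraries are at 0; it ran from 4.19 to 8.55 over the alternatives. At least 1 Cox7a1 transcript was found in 31 of 33 enterocyte-like cells (93.9%, 95% Wilson interval 80.4 to 98.3) and in 6 of 66 stem-like cells (9.09%), and the interval covers counting error only. The share was 23.9% in proliferating-like, 22.7% in goblet-like, 13% in Paneth-like, 11.5% in tuft-like and 11.4% in enteroendocrine-like cells. These shares are not taken at equal depth, with a median of 18139 transcripts per cell in Paneth-like against 7683 in enterocyte-like cells. Per 10000 transcripts, Cox7a1 was at 7.04 in enterocyte-like, 0.306 in goblet-like and 0.298 in proliferating-like cells. It was at 0.197 in enteroendocrine-like, 0.168 in tuft-like, 0.0992 in stem-like and 0.0758 in Paneth-like cells. No background level was measured, so the low levels outside enterocyte-like cells are not read as expression.

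Of the other complex IV subunits, Cox5a had levels of 14.3, 12.3 and 17.5 in enterocyte-like and 5.56, 4.28 and 6.70 in stem-like cells (log2 change 1.18, SE 0.29, edgeR adjusted p = 0.0029). Cox7a2, the broadly expressed isoform of the Cox7a subunit, had 18.2, 9.19 and 19.5 against 6.39, 4.28 and 7.29 (log2 change 1.13, SE 0.25, edgeR adjusted p = 0.0014). Both were higher in each of the 3 libraries without overlap. Cox7b, Cox6a1, Cox6c and Cox5b were also higher, by 0.76 to 0.60 on the log2 scale. Cox7a2l, a relative of Cox7a2, was lower in relation to the other genes (log2 change -0.86, SE 0.28, edgeR adjusted p = 0.02), at 2.76, 3.61 and 5.99 against 6.14, 5.61 and 5.30. Its levels overlapped and replicate 5 ran the other way.

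In complex V, Atp5o, a subunit of the peripheral stalk, was at 17.5, 10.6 and 14.7 in enterocyte-like and 4.74, 7.51 and 6.75 in stem-like cells (log2 change 1.00, SE 0.25, edgeR adjusted p = 0.0036). Atp5f1, Atp5d, Atp5j2, Atp5c1 and Atp5h, which build the stalks and the membrane part, were higher by 0.91 to 0.63 on the log2 scale. In complex III, Uqcrq was at 15.8, 9.58 and 11.4 against 6.17, 5.61 and 4.76 (log2 change 0.94, SE 0.24, edgeR adjusted p = 0.0036). Uqcrfs1, the Rieske iron-sulphur protein, passed the test (log2 change 1.10, SE 0.35, edgeR adjusted p = 0.017) with 7.96, 7.27 and 3.32 against 3.00, 1.87 and 3.62, so that replicate 5 did not share the direction. In complex I, the NADH-binding core subunit Ndufv1 was at 4.24, 3.99 and 3.98 against 1.84, 1.33 and 1.95 (log2 change 1.06, SE 0.32, edgeR adjusted p = 0.012). Ndufab1, Ndufa5, Ndufb10 and Ndufc1, accessory subunits, passed with log2 changes of 1.05, 1.05, 0.93 and 0.86. The plot of fitted changes by complex shows all members tested in 5 comparisons.

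**Figure D2:**
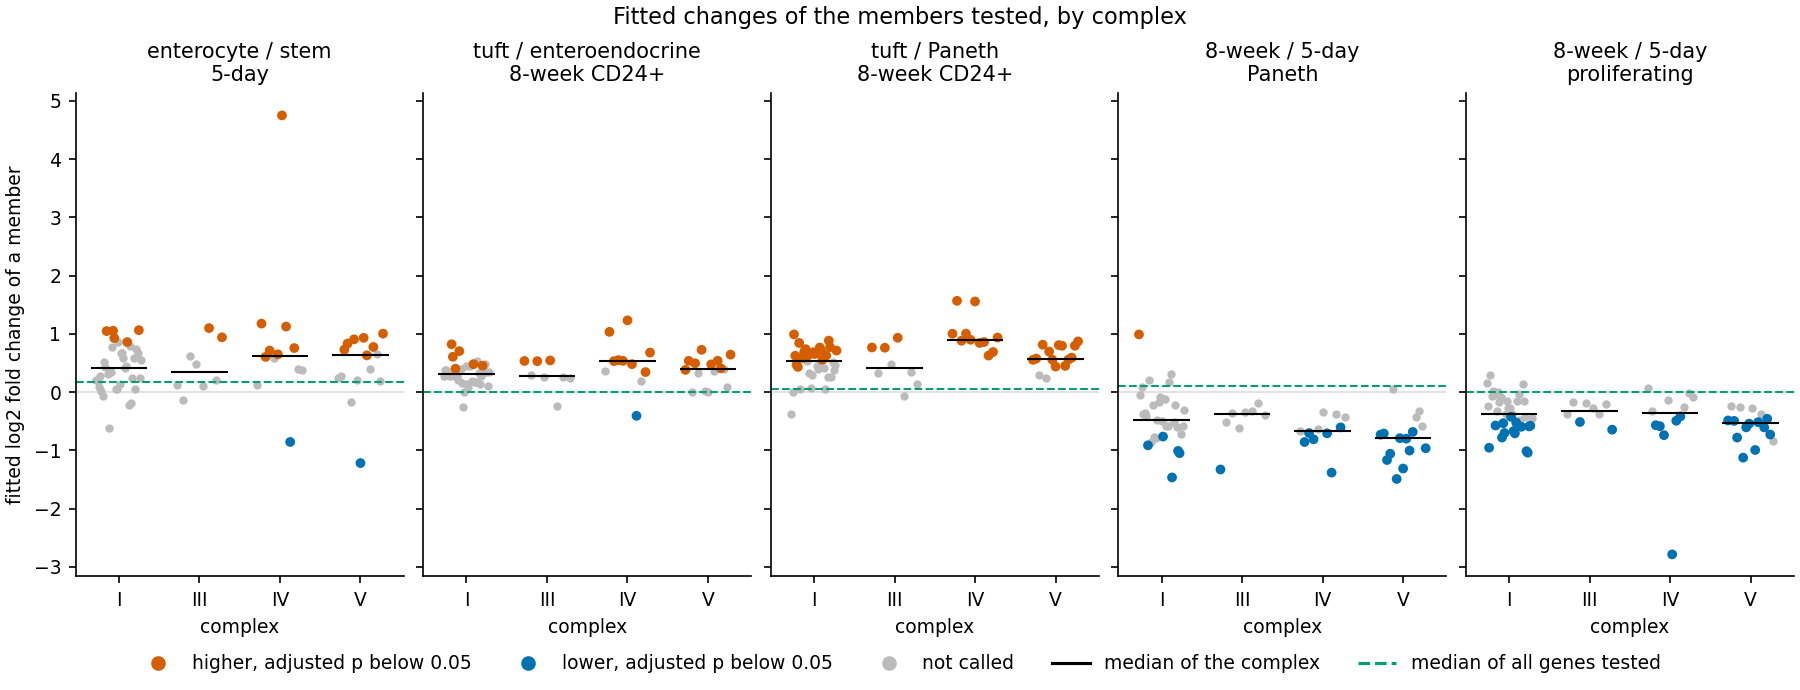
Fitted log2 fold change (y axis) of every member that passed the filter on low counts, by complex, in 5 comparisons; orange and blue points passed the test (higher and lower), grey points did not, black lines are medians of the complex and the dashed line is the median of all genes tested. Most complex IV and V members lie above the line in tuft-like against Paneth-like cells, and most members lie below it in both 8-week against 5-day comparisons that are shown.

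The 3 genes of subunit c, the proton-carrying ring of ATP synthase, moved apart. Atp5g1, Atp5g2 and Atp5g3 encode the same mature protein behind different import sequences, so their levels show which gene supplies the messenger. Atp5g3 was at 29, 28.5 and 34.3 in enterocyte-like and 13.2, 14.9 and 13.3 in stem-like cells (log2 change 0.93, SE 0.20, edgeR adjusted p = 0.0011). Atp5g2 was at 6.09, 5.92 and 4.66 in enterocyte-like and 11.3, 11.9 and 12.4 in stem-like cells (log2 change -1.22, SE 0.25, edgeR adjusted p = 0.00053). Neither gene's levels overlapped between the classes. Cox7a1 and Atp5g2 were the 2 members of the 12 named in this comparison that passed in each of its 10 alternatives.

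As a share of the 3 subunit c genes, Atp5g2 made up 33.8% ± 2.14 (SD, n = 5, 31.3 to 36.4) in stem-like cells at 5 days and 11.8% ± 1.90 (n = 3, 9.65 to 12.9) in enterocyte-like cells. In the traced CD24+ libraries at 8 weeks it made up 27.1% ± 3.13 (n = 3) in stem-like cells, 18.5% ± 1.23 (n = 3) in tuft-like and 22.1% ± 0.93 (n = 3) in enteroendocrine-like cells. Proliferating-like cells lay between, at 22.8% ± 0.69 (n = 5) at 5 days. Paneth-like cells were at 32.4% ± 1.49 (n = 3) at 5 days, in the range of stem-like cells, and at 24.5% ± 1.08 (n = 3) at 8 weeks. Atp5g3 ran in the opposite order, from 40.1% ± 3.15 (n = 5) in stem-like cells at 5 days to 65% ± 5.23 (n = 3) in enterocyte-like cells. In the 3-week library labelled non-traced, Atp5g2 was at 21.7% in stem-like, 20.8% in goblet-like, 12.1% in proliferating-like and 9.17% in enterocyte-like cells. In the ungated 8-week library it was at 26.6% in stem-like and 25.9% in enteroendocrine-like cells. Atp5g3 was highest of all, at 74.3%, in the 3 tuft-like cells of that library. The plot of subunit c shares gives each library. A 3′ tag separates these 3 genes only as far as the authors' alignment did.

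**Figure D3:**
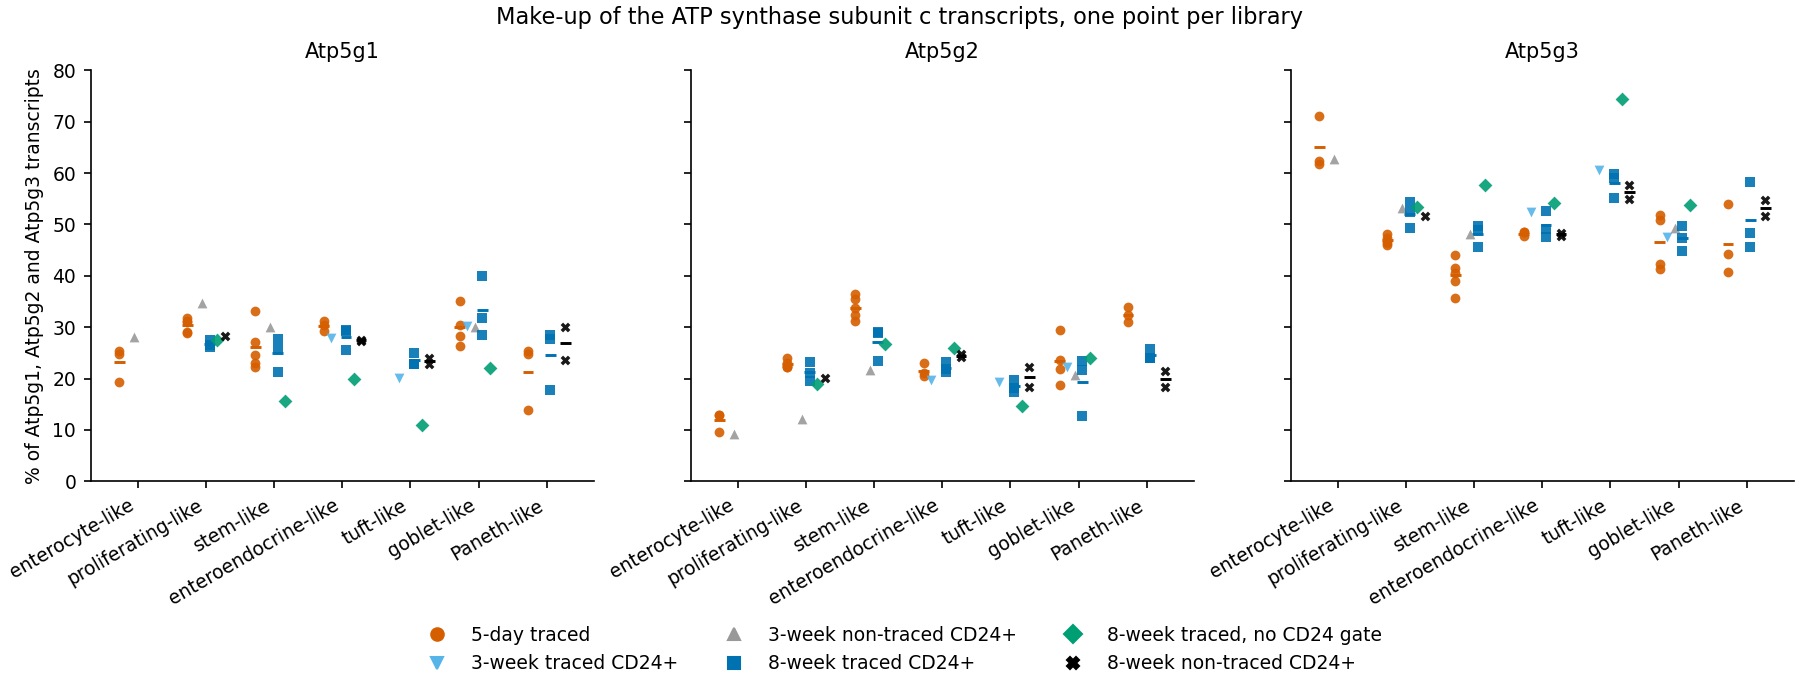
Share of each subunit c gene in the transcripts of Atp5g1, Atp5g2 and Atp5g3 (y axis, percent), 1 point per library and class, with a short line for the mean of a group with more than 1 library. Atp5g2 is highest in stem-like cells at 5 days (31.3% to 36.4%) and lowest in enterocyte-like cells (9.65% to 12.9% at 5 days), where Atp5g3 reaches 71%. Single libraries of other classes come near these lows (12.1% in proliferating-like cells at 3 weeks), and Atp5g3 is highest in tuft-like cells of the ungated 8-week library (74.3%).

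Other genes of energy metabolism were counted from lists for the same comparison. Of complex II and cytochrome c, 4 of 6 genes tested were higher and 0 lower, among them Cycs, cytochrome c itself (12.7 against 3.06, log2 change 1.84, SE 0.29). Of the citric acid cycle and pyruvate dehydrogenase, 6 of 15 were higher and 0 lower, with Mdh2, malate dehydrogenase, at 24.5 against 4.10. Of glycolysis 7 of 10 were higher and 0 lower, and of fatty acid oxidation 7 of 15 and 0. Of all genes tested, 20.8% were higher and 16% lower. Of the 7 assembly factors tested 0 passed, and of 32 mitochondrial ribosomal proteins 1 was lower. Cytosolic ribosomal proteins went the other way, with 76 of 78 lower and a median log2 change of -1.73.

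Goblet-like cells differed from stem-like cells (5-day replicates 1, 2, 3 and 5) in few members. Of 71 tested, 0 were higher and 2 lower, against 10.5% and 9.92% of all genes tested (20.4% in either direction), and the median was 0.04 over the members and 0.03 over all genes. Cox7a2l was at 3.19, 3.81, 3.55 and 4.20 in goblet-like and 6.14, 7.37, 5.61 and 5.30 in stem-like cells (log2 change -0.81, SE 0.20, edgeR adjusted p = 0.0041). Atp5g2 was at 7.90, 8.98, 5.70 and 7.77 against 11.3, 10.2, 11.9 and 12.4 (log2 change -0.63, SE 0.18, edgeR adjusted p = 0.016). Both were lower in each of the 4 libraries with no overlap. Without 5-day replicate 2 Cox7a2l did not pass, and with at least 1500 transcripts per cell Atp5g2 did not. The count fell to 0 without 5-day replicate 1, to 1 without replicate 3 or 5, and to 0 with no filter on low counts or with at least 5000 transcripts per cell.

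In Paneth-like against stem-like cells, 0 of 71 members passed the edgeR test, 4 had an unadjusted p below 0.05, and DESeq2 called 0, against 5.3% of all genes tested (5.18% higher and 0.122% lower). The summed share in Paneth-like cells was 0.477 to 0.560 times that of stem-like cells in the 3 libraries at 5 days, and 0.719 to 0.869 times with marker genes left out. In proliferating-like against stem-like cells, 0 of 71 passed with edgeR, against 2.68% of all genes tested, 12 had an unadjusted p below 0.05, and DESeq2 called 1 lower. The median was 0.18 over the members and 0.04 over all genes, and with no filter on low counts 3 passed. The summed share in proliferating-like cells was higher than in stem-like cells in 4 of the 5 libraries at 5 days, by 1.10 to 1.27 times, and lower in replicate 4, at 0.905 times.

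Among the CD24+ cells at 8 weeks, tuft-like cells had more messenger for many complex IV and V subunits than enteroendocrine-like cells of the same 5 libraries. Of 70 members tested, 25 were higher and 1 lower, against 15.4% and 15.7% of all genes tested. The higher members were 8 of 11 of complex IV, 8 of 15 of complex V, 3 of 8 of complex III and 6 of 36 of complex I (16.7%, near the share of all genes tested). The median was 0.36 over the members and 0.01 over all genes. Without 8-week traced CD24+ replicate 3 the count of members that passed was 14 in place of 26.

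Cox6c, a small complex IV subunit, had the largest difference, and tuft-like cells had 28.5, 21.7 and 23.8 in the traced and 22.4 and 19.7 in the non-traced libraries. Enteroendocrine-like cells had 11.5, 8.24 and 10.2 in the traced and 11.8 and 6.91 in the non-traced libraries. The lowest tuft value lies above the highest enteroendocrine value, and the log2 change was 1.23 (SE 0.14, edgeR adjusted p = 3.5e-10). Cox5a was at 8.38, 6.71 and 7.92 in the traced and 7.53 and 6.79 in the non-traced libraries, against 5.29, 3.05 and 2.76 and 4.07 and 2.95 (log2 change 1.03, SE 0.16, edgeR adjusted p = 6.1e-07). Cox8a was at 15.8, 21.2 and 20.8 and at 17.3 and 19.6, against 9.49, 11.1 and 14.1 and 12.5 and 11.2 (log2 change 0.68, SE 0.13, edgeR adjusted p = 5.2e-05). None of the 3 overlapped between the classes. The plot of complex IV levels shows Cox7a1, Cox6c, Cox5a and Cox7a2l in every class.

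**Figure D4:**
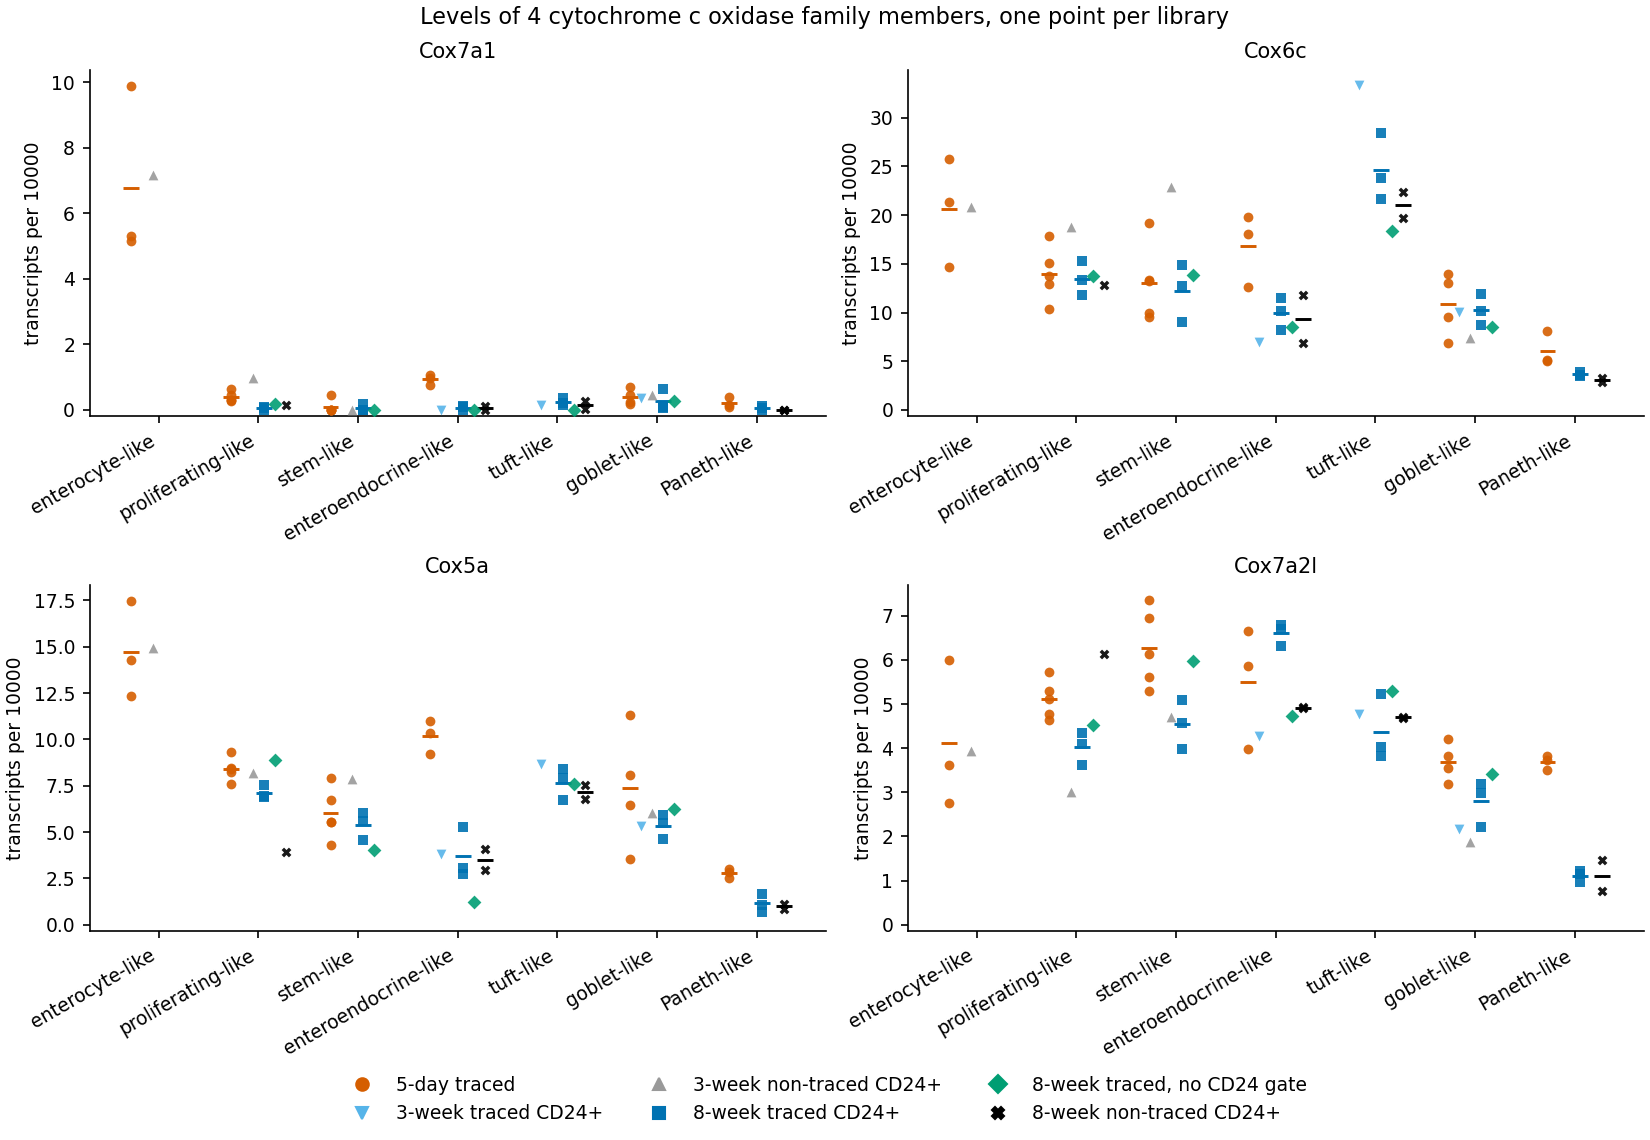
Level of Cox7a1, Cox6c, Cox5a and Cox7a2l (y axis, transcripts per 10000) by class, 1 point per library with at least 3 cells of the class and a short line for the mean of a group with more than 1 library. Cox7a1 stands above 5 in enterocyte-like cells alone, Cox6c is highest in tuft-like cells (19.7 to 28.5 in the CD24+ libraries at 8 weeks), and Cox7a2l is lowest in Paneth-like cells at 8 weeks (0.762 to 1.46).

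In complex V, Atp5f1 and Atp5o of the peripheral stalk were higher in tuft-like cells by 0.73 (SE 0.19, edgeR adjusted p = 0.0017) and 0.64 (SE 0.17, edgeR adjusted p = 0.0023) on the log2 scale, each in 5 of 5 libraries. The catalytic subunits Atp5b and Atp5a1 were higher by 0.54 and 0.38. In complex I, Ndufa9, an accessory subunit of the arm that meets the membrane, was higher in 5 of 5 libraries, with 2.37, 1.38 and 1.91 and 1.47 and 1.54 against 0.99, 0.985 and 1.09 and 1.08 and 0.979. Ndufa3, another accessory subunit, was higher in 4 of 5 libraries (log2 change 0.82, SE 0.18, edgeR adjusted p = 0.00032), and in traced replicate 2 the classes had 2.65 and 2.69. Uqcrc2, a complex III core protein, was higher by 0.54 (SE 0.18, edgeR adjusted p = 0.017). The 1 lower member was Cox7a2l, with 4.03, 3.81 and 5.24 and 4.69 and 4.71 in tuft-like against 6.80, 6.70 and 6.32 and 4.91 and 4.93 in enteroendocrine-like cells (log2 change -0.41, SE 0.15, edgeR adjusted p = 0.037). It was lower in each library, although the ranges of the classes overlap, and it passed in 7 of 12 alternatives. Ndufa9 and Uqcrc2 each passed in 10 of 12.

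The other lists did not move as a block in this comparison. Of 12 glycolysis genes 4 were higher and 4 lower: hexokinase 2 (Hk2) was at 0.126 in tuft-like and 5.32 in enteroendocrine-like cells (log2 change -5.01, SE 0.28), whereas Hk1 was at 0.880 against 0.151 and Pfkp, a phosphofructokinase, at 1.22 against 0.172. Of 7 carrier and porin genes 3 were higher and 1 lower, with Vdac3, an outer-membrane channel, at 7.17 against 1.54 and Slc25a4, an ADP/ATP carrier, at 0.685 against 2.27. Of the citric acid cycle 3 of 16 were higher and 0 lower. Esrra, the estrogen-related receptor alpha, was the 1 of 4 regulators of mitochondrial biogenesis that passed, at 1.48 against 0.590 (log2 change 1.18, SE 0.25, edgeR adjusted p = 0.00013). Of 70 mitochondrial ribosomal proteins 3 were higher and 1 lower.

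Against Paneth-like cells, tuft-like cells had a higher level of each of the 70 members tested in each of the 5 libraries, as 70.1% of all genes tested differed in 1 direction in each library and the median gene was higher by 1.25 on the log2 scale. Relative to the other genes, 47 were higher and 0 lower, against 18.2% and 18.8% of all genes tested, and the median was 0.61 over the members and 0.05 over all genes. All 11 complex IV members tested passed, with 13 of 15 of complex V, 20 of 36 of complex I and 3 of 8 of complex III. Cox5a in Paneth-like cells was at 1.68, 1.09 and 0.693 in the traced and 1.11 and 0.873 in the non-traced libraries (log2 change 1.57, SE 0.18, edgeR adjusted p = 1e-09). Cox6c was at 3.89, 3.62 and 3.46 and at 2.84 and 3.31 (log2 change 1.56, SE 0.15, edgeR adjusted p = 2.8e-12). Both Paneth ranges lie far below the tuft values given above. Cox6a1, Cox4i1, Ndufa11, Cox8a, Uqcrc2, Cox6b1, Ndufs4 and Cox5b followed with log2 changes of 1.00 to 0.88, and these 10 members passed in each of the 12 alternatives.

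Against enteroendocrine-like cells, Paneth-like cells had 2 members higher and 11 lower of 70 tested, against 16.1% and 13.8% of all genes tested (29.9% in either direction). The lower members were 5 of complex IV, 3 of complex V and 3 of complex I. Cox7a2l was at 1.15, 1.21 and 0.974 and at 0.762 and 1.46 in Paneth-like cells, against the 4.91 to 6.80 of enteroendocrine-like cells (log2 change -1.27, SE 0.19, edgeR adjusted p = 4.3e-07). Atp5l, the membrane subunit g, was at 2.50, 2.19 and 1.76 and at 2.23 and 1.97 against 8.25, 6.68 and 8.43 and 9.04 and 7.49 (log2 change -0.71, SE 0.16, edgeR adjusted p = 0.00031). Cox4i1, a regulatory complex IV subunit, was at 1.78, 2.46 and 2.96 and at 1.88 and 2.34 against 9.53, 6.41 and 8.54 and 9.28 and 5.64 (log2 change -0.64, SE 0.17, edgeR adjusted p = 0.002). These 3 did not overlap and passed in each alternative. The 2 members called higher, Ndufa1 and Ndufa4, had lower mean levels in Paneth-like cells (2.81 against 4.13 and 2.06 against 3.02), but by less than the median gene. The count of 13 changed to 21 with DESeq2, 6 with classes from clusters, 5 without 8-week traced CD24+ replicate 2 and 6 without either non-traced replicate.

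In traced against non-traced CD24+ cells at 8 weeks, no member passed in any of 3 classes. In tuft-like cells 0 of 70 members passed, against 0.0671% of all genes tested (0.0224% higher and 0.0447% lower), in enteroendocrine-like cells 0 of 69 against 0.107%, and in Paneth-like cells 0 of 70 against 0.125%. In each of the 3 comparisons 0 members had an unadjusted p below 0.05 with edgeR and DESeq2 called 0. The median fitted change of the members was 0.04 in tuft-like, 0.04 in enteroendocrine-like and 0.14 in Paneth-like cells on the log2 scale. With 3 traced and 2 non-traced libraries this does not show that the levels are alike.

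Within the traced CD24+ libraries at 8 weeks, tuft-like cells could also be set against stem-like cells, a comparison added after the summed shares were seen. Of 70 members 1 was higher and 1 lower, against 25.6% of all genes tested, and the median was 0.03 over the members and 0.02 over all genes. Cox6c was at 28.5, 21.7 and 23.8 in tuft-like and 12.7, 9.07 and 14.9 in stem-like cells (log2 change 0.94, SE 0.17, edgeR adjusted p = 4.8e-05). Atp5g2 was at 4.71, 4.24 and 5.14 against 8.08, 6.53 and 8.98 (log2 change -0.82, SE 0.20, edgeR adjusted p = 0.0015). Neither overlapped, and without 8-week traced CD24+ replicate 3 the adjusted p of Atp5g2 was 0.0594. With at least 1500 or at least 5000 transcripts per cell, 4 members passed.

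Proliferating-like cells of the traced CD24+ libraries at 8 weeks had lower shares of the members than those of the traced libraries at 5 days. The summed shares were 4.02%, 3.83% and 3.69% at 8 weeks and 4.82%, 4.67%, 4.48%, 4.58% and 4.93% at 5 days, with no overlap. In the ungated 8-week library the share was 4.30%, between the groups. Of 72 members tested, 0 were higher and 33 lower, against 8.09% and 8.15% of all genes tested. The comparison was added after the summed shares were seen, so these counts are not independent support for the lower share. The lower members were 11 of 16 of complex V, 6 of 12 of complex IV, 14 of 36 of complex I and 2 of 8 of complex III, and the median was -0.42 over the members and 0.00 over all genes. Without 5-day replicate 4 the count was also 33.

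Atp5h, a subunit of the peripheral stalk, was at 5.25, 5.02 and 4.64 at 8 weeks and at 9.12, 8.65, 8.41, 10.2 and 10.7 at 5 days (log2 change -0.99, SE 0.13, edgeR adjusted p = 2.8e-05). Atp5f1, which forms the same stalk, was at 2.37, 1.97 and 2.64 and at 3.85, 4.46, 5.13, 4.93 and 5.42 (log2 change -1.13, SE 0.16, edgeR adjusted p = 5.4e-05). Both groups of values lie apart. Of the complex I core, Ndufs8 was at 1.66, 2.05 and 1.60 and at 3.75, 3.61, 3.44, 2.70 and 3.34 (log2 change -1.04, SE 0.16, edgeR adjusted p = 0.00014). Ndufs7, which with Ndufs8 carries iron-sulphur clusters towards ubiquinone, was at 1.82, 1.74 and 1.87 and at 3.80, 3.64, 3.59, 3.18 and 2.82 (log2 change -1.01, SE 0.16, edgeR adjusted p = 0.00017). Neither overlapped between the times. Ndufa11, Ndufa9, Atp5d, Cox6b1 and Atp5o followed with log2 changes of -0.96 to -0.73. Cox7a1 was at 0.0879, 0 and 0.0689 and at 0.629, 0.315, 0.282, 0.296 and 0.463 (log2 change -2.79, SE 0.56, edgeR adjusted p = 0.0014).

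Several measures moved together with this difference. Enterocyte markers summed to 4.76 to 6.68 transcripts per 10000 in proliferating-like cells at 8 weeks and to 12 to 33.2 at 5 days. Median depth was 13210 to 15882 transcripts per cell at 8 weeks and 6776 to 9672 at 5 days. The 5-day libraries held the Y-linked Ddx3y (0.197 to 0.424) with Xist at 0 to 0.0134, and the traced CD24+ libraries at 8 weeks held Xist (0.903 to 1.65) with Ddx3y at 0. Time, gate and the sex of the mice cannot be told apart in this or any other comparison of 8 weeks with 5 days. In proliferating-like cells with fewer than 10 enterocyte-marker transcripts per 10000, the summed shares were 3.92%, 3.73% and 3.60% at 8 weeks. At 5 days they were 3.96% in replicate 3 and 3.87% in replicate 4, the library with most of the mixed cells. Replicate 4 thus lies within the 8-week range and replicate 3 just above it. Over all cells, replicates 3 and 4 had the lowest shares at 5 days. The link to marker content was not tested. In that subset, with only 7 and 6 cells from 5-day replicates 3 and 4, 1 of 70 members passed (Atp5h). The share of all genes tested that passed there is not given, so the lower count is not read as a result about the members. In cells of 5000 to 15000 transcripts the shares were 3.54%, 3.35% and 3.63% at 8 weeks and 4.41% to 4.83% at 5 days, and 23 of 70 members were lower. For these cells, too, the share of all genes tested that passed is not given. The plot of proliferating-like cells shows the 3 sets of cells side by side.

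**Figure D5:**
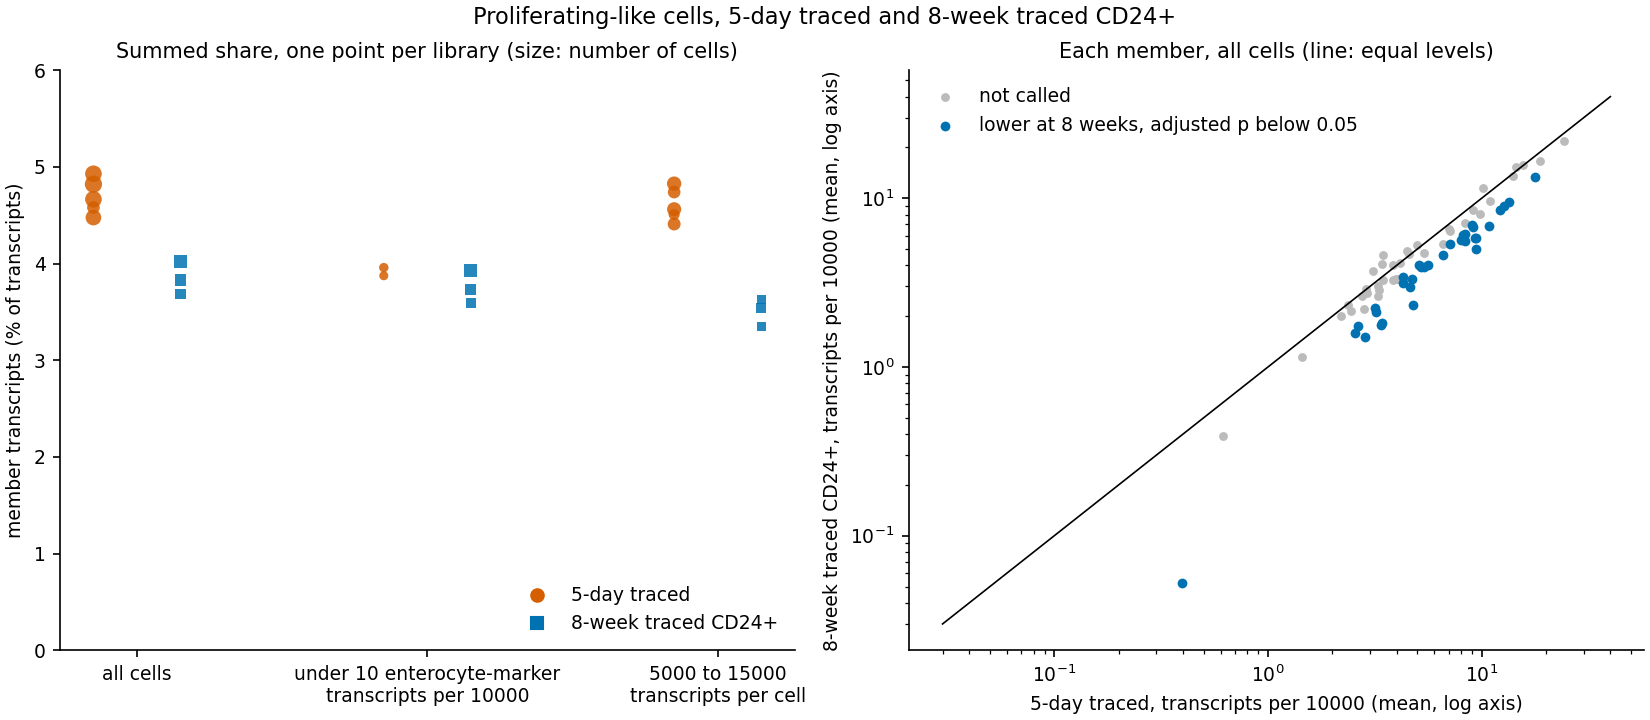
Left, summed share of the members (y axis, percent) in proliferating-like cells of each library at 5 days and in the traced CD24+ libraries at 8 weeks, for all cells, for cells with under 10 enterocyte-marker transcripts per 10000 and for cells of 5000 to 15000 transcripts; right, mean level of each member at 8 weeks against 5 days on log axes. The groups lie apart for all cells (3.69% to 4.02% against 4.48% to 4.93%). Among cells with few enterocyte-marker transcripts, only replicates 3 and 4 remain at 5 days. Replicate 4 (3.87%, 6 cells) lies within the 8-week range and replicate 3 (3.96%, 7 cells) just above it.

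In Paneth-like cells the summed share was 1.03%, 1.16% and 1.02% in the traced CD24+ libraries at 8 weeks and 2.12%, 1.83% and 2.18% in replicates 2, 3 and 5 at 5 days. With marker genes left out it was 1.99%, 1.96% and 1.81% against 3.10%, 2.78% and 3.42%, again with no overlap. Of 65 members tested, 1 was higher and 23 lower, against 25.9% and 21.1% of all genes tested. This comparison, too, was added after the summed shares were seen, so the counts are not independent support for the lower share. The lower members were 11 of 15 of complex V, 6 of 11 of complex IV, 5 of 31 of complex I (16.1%) and 1 of 8 of complex III (12.5%). The shares in complexes I and III lie below that of all genes tested. The median was -0.58 over the members and 0.10 over all genes. The count of 24 went to 14 without 5-day replicate 2, to 12 without 8-week traced CD24+ replicate 3, and to 13 with DESeq2 or with no filter on low counts.

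Atp5f1 was at 0.701, 0.605 and 0.554 in Paneth-like cells at 8 weeks and at 2.32, 2.66 and 1.74 at 5 days (log2 change -1.49, SE 0.31, edgeR adjusted p = 0.0017). Cox7a2l was at 1.15, 1.21 and 0.974 against 3.82, 3.50 and 3.73 (log2 change -1.38, SE 0.24, edgeR adjusted p = 0.00064). Neither overlapped between the times. Atp5g2 was at 1.60, 1.58 and 1.76 against 4.98, 4.81 and 6.37 (log2 change -1.31, SE 0.24, edgeR adjusted p = 0.00091), and Uqcr10, a small complex III subunit, fell by 1.32 on the log2 scale. Ndufa1, an accessory complex I subunit, was the 1 member that was higher (log2 change 0.99, SE 0.37, edgeR adjusted p = 0.039), with 2.42, 2.94 and 3.17 against 1.12, 1.37 and 3.91, which overlap; it passed in 5 of 15 alternatives. Time, gate and the sex of the mice cannot be told apart here either. Median depth was 18135 to 20999 transcripts per cell at 8 weeks and 14227 to 15434 at 5 days. Enterocyte markers summed to 1.25 to 2.18 per 10000 at 8 weeks and 8.32 to 14.8 at 5 days. Among Paneth-like cells with fewer than 10 such transcripts the summed shares were 1.03%, 1.16% and 1.02% against 1.80% and 1.89%, and 1 member was higher and 11 were lower of 63. The 5-day group then held 4 and 7 cells, and the share of all genes tested that passed in this subset is not given.

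Stem-like cells showed the same comparison with fewer calls. The summed share was 3.42%, 3.31% and 3.84% at 8 weeks and 3.91%, 4.24%, 3.84%, 5.06% and 3.89% at 5 days, where the ranges overlap. Of 67 members tested, 0 were higher and 2 lower, against 7.15% and 6.84% of all genes tested (14% in either direction), and the median was -0.25 over the members and 0.03 over all genes. Atp5f1 was at 1.97, 0.873 and 1.12 at 8 weeks and at 3.23, 3.16, 3.47, 5.45 and 3.90 at 5 days, with no overlap (log2 change -1.35, SE 0.33, edgeR adjusted p = 0.0046). Ndufa11, a membrane subunit of complex I, was at 0.979, 1.05 and 1.13 against 2.76, 2.56, 3.49, 3.45 and 0.555 (log2 change -1.23, SE 0.39, edgeR adjusted p = 0.032), and replicate 5 lies below the 8-week values; it passed in 5 of 16 alternatives, and not with DESeq2, with no filter on low counts, or without 5-day replicate 1, 2, 3 or 4 or any one 8-week library. Among cells of 5000 to 15000 transcripts 0 passed, with 2 libraries at 8 weeks and 3 at 5 days. Cells with few enterocyte-marker transcripts came from 3 libraries at 8 weeks and 1 at 5 days (3 cells), too few to read the count of 0 there.

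Genes next to the members in energy metabolism were also lower at 8 weeks in proliferating-like cells. Of complex II and cytochrome c partners 4 of 6 were lower, among them Cyc1, cytochrome c1 of complex III (4.10 against 7.54, log2 change -0.96, SE 0.13), and of carriers and porins 4 of 6. Glycolysis had 8 lower and 1 higher of 12, the latter Hk2 at 1.60 against 0.374. Fatty acid oxidation had 6 lower of 16, mitochondrial ribosomal proteins 10 lower and 1 higher of 76, and cytosolic ribosomal proteins 36 lower of 81. In Paneth-like cells, complex II and cytochrome c had 3 lower of 6 and cytosolic ribosomal proteins 60 lower of 76, and the copper chaperone Cox17, an assembly factor, was higher at 1.66 against 0.776. Of all genes tested, 8.15% were lower in proliferating-like and 21.1% in Paneth-like cells, so a list such as the mitochondrial ribosomal proteins lies near that share.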

How the data were processed

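The deposited files hold, per library, estimated transcript counts per gene and cell; per the labels' protocols, cells were sorted and processed by CEL-seq, and per the submitters' processing notes reads were aligned with BWA 0.6.2-r126 to mm10. The values are the authors' transform of whole numbers of molecular barcodes (256 possible) for random collision, with no scaling between cells; 145 of 3172205 values above 0 sat at the ceiling of this transform, none of them a member's. A second deposited table of expected counts repeats the 96 cells of the 3-week traced CD24+ library with the same totals; its other 576 columns could not be matched to a single sample by name and were not used. Cells with at least 3000 transcripts, spike-ins left out, were kept. Classes came from summed marker levels per 10000 transcripts, with limits (Paneth 500, goblet 100, enterocyte 100, proliferating 30, enteroendocrine 25, tuft 20, stem 10) set after the distribution of the marker sums was seen; a cell past 2 of the 5 specialised limits was called mixed unless 1 list exceeded its limit by 2.5 times as much as the other. No doublet caller was run. Clusters (scanpy 1.11.5, leidenalg 0.10.2) gave 88.1% of 798 cells the same class, but 33 of 66 stem-like cells, of which 32 fell in proliferating-like clusters.

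Counts were summed per class and library (at least 3 cells), rounded, filtered with filterByExpr, scaled by TMM and tested with edgeR 4.0.16's quasi-likelihood test and Benjamini-Hochberg adjustment in R 4.3.3, with library as a block for classes of the same libraries; DESeq2 1.42.0 was the alternative tool. The scripts were tested on simulated data. Named members are those past the threshold, up to 10 with the largest rise and 10 with the largest fall per comparison, isoform families and the 2 highest per complex. The members and lists were chosen with earlier results of these data known, and 3 comparisons (tuft-like against stem-like cells, and 8 weeks against 5 days in Paneth-like and proliferating-like cells) were added after the summed shares were seen. Some values of single genes are not reported here.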

Additional observations from a re-analysis of the deposited data

Results flagged for a closer look

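Of 127 sets of 4 or 5 libraries of a named member and class that were tested for a library standing apart, 10 had one, and chance gives about 1 in 20. All 10 are at 5 days. In stem-like cells, replicate 4, with 3 such cells, was highest for Cox5b (15.6, next 10.1), Ndufa9 (2.95, next 1.58), Ndufs4 (3.45, next 2.17) and Ndufs7 (3.44, next 2.67). Replicate 2 was highest for Uqcr10 (7.57, next 5.59) and replicate 1 for Cox7a1 (0.458, all others 0). In goblet-like cells, replicate 5 was highest for Atp5g3 (21, next 13.8), and replicate 3 was lowest for Ndufa1 (1.65, next 3.99) and Ndufa5 (1.65, next 3.31). In proliferating-like cells, replicate 5 was highest for Atp5g2 (10.2, next 9.09).

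Ndufs3, a core subunit of complex I, was higher in every traced CD24+ library at 8 weeks than in every 5-day library in proliferating-like cells (mean 4.06 against 3.40) and lower in Paneth-like cells (1.11 against 1.88). It was called in neither comparison (edgeR adjusted p = 0.58 and 0.20), the median gene's level in Paneth-like cells also shifted by -0.23 on the log2 scale, and the difference between the classes was not tested.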

How the results depend on the processing

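No result reversed. For enterocyte-like against stem-like cells, 23 members passed, 8 with no filter on low counts, 10 with at least 5000 transcripts per cell, 40 with classes from clusters and 2 to 13 with a library left out. For goblet-like against stem-like cells, 2 passed, 0 with no filter, 0 with at least 5000 transcripts and 0 to 2 with a library left out. For proliferating-like against stem-like cells, 0 passed, 1 with DESeq2 and 3 with no filter, where the members' median was 0.48. For tuft-like against enteroendocrine-like cells, 26 passed and 14 to 28 with a library left out. For Paneth-like against enteroendocrine-like cells, 13 passed, 21 with DESeq2, 6 with classes from clusters and 5 to 10 with a library left out. For tuft-like against stem-like cells, 2 passed and 4 with either other depth limit. The 8-week against 5-day count in stem-like cells was 2, 1 with DESeq2, 1 with no filter, 4 with the replicate block, 0 in either subset of cells (1 library at 5 days in the cells with few enterocyte markers) and 1 to 2 with a library left out. In Paneth-like cells it was 24, 13 with DESeq2, 13 with no filter, 12 in cells with few enterocyte markers, 0 in cells of 5000 to 15000 transcripts (1 library of 3 cells at 8 weeks against 2 at 5 days, assumed to vary alike, so this 0 shows no loss) and 12 to 23 with a library left out. In proliferating-like cells it was 33, 1 in cells with few enterocyte markers, and 23 to 33 with a library left out. These 2 subsets of cells, and all alternatives of the 3 comparisons added later, were chosen after seeing the data. For none of the alternatives, these subsets included, is the share of all genes tested that passed given. Their counts are not read as results about the members. The median in traced against non-traced enteroendocrine-like cells was 0.33 without the first non-traced library. Summed shares that moved past 1 SD were Paneth-like at 5 days (3.10% without marker genes, 1.79% as a mean of cells), Paneth-like at 8 weeks, traced (1.92%, 0.976% and, with clusters, 1.17%) and non-traced (1.78%, 0.944% and 1.39%), and goblet-like at 8 weeks, traced (3.47% and 3.04%). The cause of these changes was not tested. Of the named members' calls, 771 held and 145 missed the threshold.

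Replicate numbers are shared between groups in the labels only. With the replicate block, 34 members passed in proliferating-like, 20 in Paneth-like and 4 in stem-like cells at 8 weeks against 5 days, and 0 in each traced against non-traced comparison. Same-numbered libraries correlated between -0.088 and 0.352 in their deviations. Small classes limit depth: 3 enterocyte-like cells in 5-day replicate 5 carry its level.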
